A study of Mus musculus with 35 samples.

Results

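The genotype by stage interaction of germ cell small RNAs asked whether loss of Smg6 changed a small RNA differently in round spermatids (RS) than in pachytene spermatocytes (Spc). It was measured in all 16 small RNA libraries from RS and Spc, of 35 libraries in the series, chosen by their cell type and genotype labels alone. The mice were adult, on a mixed C57Bl/6J and SV129 background. Smg6-cKO mice (cKO) were Smg6(fx/fx);Ngn3Cre+, in which Cre driven by the Ngn3 promoter removes the floxed exon of Smg6 from the early postnatal germ line onward. Control mice (CTRL) were Cre-negative littermates, Smg6(fx/fx);Ngn3Cre- or Smg6(fx/wt);Ngn3Cre-, so that floxed alleles were present in both genotypes. Both cell types were enriched from the same kind of testis suspension by sedimentation through a BSA gradient, which enriches cells and does not sort them. The groups held 3 cKO RS libraries (S15 to S17), 3 CTRL RS libraries (S18 to S20), 5 cKO Spc libraries (S21 to S25) and 5 CTRL Spc libraries (S26 to S30), with each library named by its run index. The study describes 3 biological replicates, and the labels do not say that the 5 Spc libraries of a genotype came from separate mice, so the p-values measure the spread between libraries, which may be partly technical.

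SMG6 is the endonuclease that cuts mRNAs in nonsense-mediated decay. A microRNA (miRNA) is cut from a hairpin, loaded into an Argonaute protein and finds its target mRNAs mainly through its seed, the bases at positions 2 to 8, so that miRNAs with 1 seed are predicted to share targets. Pachytene piRNAs are cut from long cluster transcripts during meiosis, are bound by PIWI proteins and persist into round spermatids, and tRNA fragments are cut from mature tRNAs near the 5′ or the CCA-bearing 3′ end. Spermatocytes become spermatids within 1 lineage, and small RNAs made in meiosis are partly carried over.

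The sequences of the miRNAs on which the results turned are given first. All are RefSeq sequences on mouse build GRCm38.p6, written 5′ to 3′ with the seed in capitals. Of the 306 miRNAs tested, 257 were matched to such a sequence by name. The first set shares the let-7 seed, and shows that members differing outside the seed had very different interactions.
let-7a-5p: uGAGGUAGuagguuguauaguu
let-7b-5p: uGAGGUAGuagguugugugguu
let-7e-5p: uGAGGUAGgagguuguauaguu
let-7f-5p: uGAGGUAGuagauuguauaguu
miR-98-5p: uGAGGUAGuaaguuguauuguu

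The second set is encoded beside let-7e on chromosome 17 or beside the related hairpins of chromosome 9, and carries the seeds of miR-99/100 and of miR-125.
miR-99b-5p: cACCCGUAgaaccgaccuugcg
miR-100-5p: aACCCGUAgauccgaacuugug
miR-125a-5p: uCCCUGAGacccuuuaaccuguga
miR-125b-5p: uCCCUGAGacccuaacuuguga

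The third set shares the miR-34/449 seed, with a member of opposite sign given last.
miR-34b-5p: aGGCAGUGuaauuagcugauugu
miR-449a-5p: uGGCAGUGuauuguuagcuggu
miR-34a-5p: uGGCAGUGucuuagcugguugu

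The fourth set shares the miR-15/16 seed, again with a member of opposite sign given last.
miR-15b-5p: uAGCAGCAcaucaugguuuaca
miR-16-5p: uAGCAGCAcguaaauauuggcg
miR-195a-5p: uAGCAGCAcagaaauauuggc
miR-497a-5p: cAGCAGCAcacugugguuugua
miR-322-5p: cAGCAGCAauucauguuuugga

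The last set holds members of the miR-200 and miR-181 families that have the same seed and interactions of opposite sign.
miR-200b-3p: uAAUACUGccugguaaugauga
miR-429-3p: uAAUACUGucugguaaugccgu
miR-200c-3p: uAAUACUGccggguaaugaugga
miR-181a-5p: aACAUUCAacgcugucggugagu
miR-181c-5p: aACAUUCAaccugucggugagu

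The libraries held 120483 to 306864 miRNA counts, 37315 to 105677 tRNA fragment counts and 4823436 to 12372513 piRNA cluster counts. Each value below is a normalized count, scaled within its own table to a common library size, so it describes a small RNA relative to the others of its class. An interaction is the cKO minus CTRL log2 difference in RS minus that in Spc, with its standard error (SE), and is positive where cKO was relatively higher in RS. The tables hold no value for Smg6 itself, so they give no check of the genotype, and no miRNA in them defines the stage. The miR-34/449 family, abundant in meiotic and haploid male germ cells, made up 20.4% to 41.3% of the miRNA counts in every library.

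Among the cKO libraries, 2 went against their stage labels in all 3 tables by their closest library. The library labelled cKO RS S16 had a mean correlation of log2 miRNA values of 0.905 with the other cKO RS libraries and of 0.943 with the cKO Spc libraries. The library labelled cKO Spc S22 had a mean correlation of 0.885 with the other cKO Spc libraries and of 0.950 with the cKO RS libraries. In all 3 tables the library closest to S16 was a cKO Spc library and the library closest to S22 was a cKO RS library, whereas the closest library of each CTRL library was of its own group. The other cKO libraries were not all set apart by cell type either. S15 was closest to S22 in miRNAs and S23 closest to S17 in tRNA fragments, and the mean correlation was higher with cKO RS than with the own group for S23 in miRNAs (0.941 against 0.940) and for S21 (0.963 against 0.958) and S23 (0.962 against 0.952) in tRNA fragments. Whether the labels of S16 and S22 were exchanged was not tested. Both kept their labels here, and the interactions are given with and without the pair. 

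RNA of other cell types also differed among the cKO libraries. Erythroid miRNAs made up 0.367% of the miRNA counts in S15, 0.239% in S17 and 0.454% in S22, and at most 0.0242% in the other 13 libraries. Blood cell miRNAs made up 2.56%, 3.42% and 2.57% of the counts in S15, S17 and S22, and 0.292% to 0.886% elsewhere. Smooth muscle miRNAs made up 0.106% to 0.871% in cKO RS and 0.227% to 0.485% in cKO Spc, against 0.0279% to 0.0860% in the CTRL libraries. Endothelial miRNAs made up 0.0945% to 0.178% in cKO RS and 0.0581% to 0.186% in cKO Spc, against 0.0192% to 0.0813% in the CTRL libraries. No marker on these lists was at 0 in all libraries. Of the members tested, 1 of 7 blood cell miRNAs had a negative interaction by the test used below and none of 5 erythroid, 4 smooth muscle and 2 endothelial miRNAs was called, beside 20.9% positive and 22.5% negative calls over all miRNAs. Without S16 and S22, 2 erythroid and 2 blood cell miRNAs were positive and 1 blood cell miRNA was negative. None of the smooth muscle and endothelial ones was called, where 29.4% of all miRNAs were called in each direction. The erythroid median moved from -1.33 to 3.53 and the blood cell median from -0.73 to 0.64. The part of these markers in the results was not tested. In such bulk samples, fewer cells of a type and less RNA per cell cannot be told apart.

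The interaction moved the miRNA profile in both directions. By the quasi-likelihood test of edgeR, with p-values adjusted over the 306 miRNAs (Benjamini-Hochberg), 64 had a positive interaction (20.9%) and 69 a negative one (22.5%), together 43.5% of those tested. The median interaction was 0.03 and the median size 1.14 on the log2 scale, and 177 miRNAs (57.8%) had a size of at least 1. Within RS, 64 miRNAs were higher in cKO (20.9%) and 52 lower (17%, together 37.9%), and within Spc 88 were higher (28.8%) and 69 lower (22.5%, together 51.3%). Most called interactions came from a change that passed the test in 1 cell type only. Of the positive ones, 30 were lower in cKO Spc only, 15 were higher in cKO RS only and 15 were both. Of the negative ones, 35 were lower in cKO RS only, 22 were higher in cKO Spc only and 10 were both. At the threshold, miR-200c-3p was the last called (interaction of -1.11, adjusted p = 0.0494) and miR-22-3p the first not called (0.63, adjusted p = 0.0501). Without S16 and S22, 85 miRNAs were positive and 85 negative of 289 tested (29.4% each), and 127 of the 133 calls were shared with the same sign. The balance of the directions depended on the scale. With plain library size it was 99 positive to 34 negative, and with all 3 tables as a common scale, which moved the median interaction to 1.45, it was 135 to 1. The counts within each cell type moved too. Plain library size gave 139 higher and 14 lower in RS and 98 and 63 in Spc. The common scale gave 204 and 1 in RS and 62 and 67 in Spc. Leaving out S18 gave 33 higher and 43 lower in RS, and leaving out S29 gave 58 and 61 in Spc.

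Read by stage, the same values differed less between the cell types in cKO, where S16 and S22 lie with the other cell type. Among the 64 positive miRNAs, the median log2 difference of RS minus Spc was -2.33 in CTRL and 0.29 in cKO, and it was smaller in size in cKO for 63 of them. Among the 69 negative miRNAs, the medians were 1.31 in CTRL and -0.13 in cKO, with a smaller size in cKO for 68. Over all 306 miRNAs the median size was 1.04 in CTRL and 0.33 in cKO, with a smaller size in cKO for 250. With S16 and S22 left out, the cKO medians were 0.45 for the positive and -0.25 for the negative miRNAs. The size was then smaller than in CTRL for 59 and 65 of them, and for 208 of all 306. The median size over all miRNAs in cKO was 0.52. These medians and counts are a second reading of the interaction, by which the called miRNAs were chosen, and carry no test of their own. The medians are on the scale of log2 normalized counts with 1 added.

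**Figure D1:**
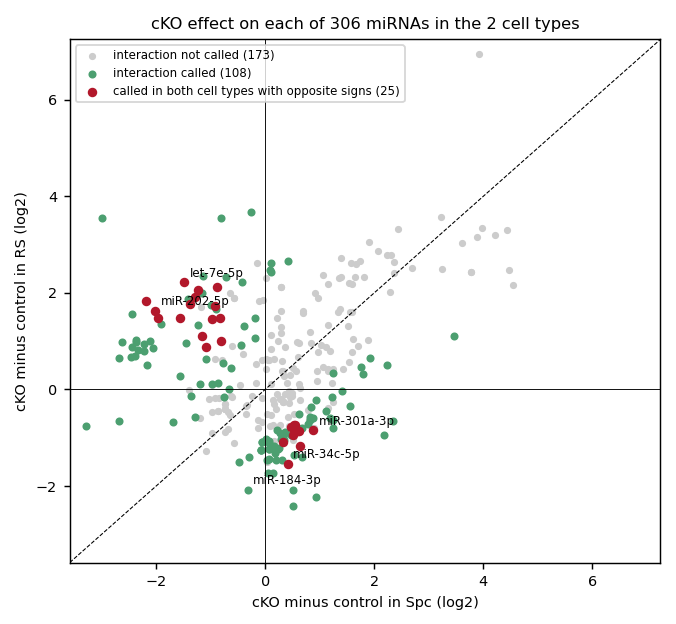
The cKO minus CTRL log2 difference in Spc (horizontal axis) is plotted against that in RS (vertical axis) for the 306 miRNAs tested, with 1 point per miRNA. Points on the dashed line have the same difference in both cell types. The 25 miRNAs with opposite called directions lie in the upper left and lower right quadrants.

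Opposite directions were called for 25 miRNAs (8.17% of those tested), the adjusted p being 0.05 or less in each cell type. Of these, 15 were higher in cKO RS and lower in cKO Spc, and 10 were lower in cKO RS and higher in cKO Spc. Plain library size gave 39 opposite miRNAs with 14 of all miRNAs lower in RS, and 54 were opposite on the common scale with 1 lower in RS, so that at most 1 of the 10 kept its direction there. The first kind held let-7b, let-7c, let-7d, let-7e, let-7f and miR-98, together with miR-99b, miR-125a, miR-181a, miR-26b, miR-202-5p, miR-201-3p, miR-351, miR-503 and miR-1843b. The second kind held miR-34c-5p, miR-449a, miR-425, miR-191, miR-25, miR-301a, miR-30e-3p, miR-375, miR-468-5p and miR-497a. The cKO and CTRL libraries did not overlap in RS for 24 of them, in Spc for 11 and in both for 10, beside 48.7% of all 306 miRNAs in RS, 32% in Spc and 11.8% in both, but these 25 were chosen for passing both tests. Without S16 and S22, 59 miRNAs had opposite called directions (20.4% of 289), which included 23 of the 25.

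The let-7 family, which restrains proliferation and stem cell programs in many tissues, had the most opposite changes. In let-7e-5p the counts were 61.7, 59.0 and 86.2 in CTRL RS and 326, 271 and 373 in cKO RS. In Spc they were 448, 589, 541, 675 and 552 in CTRL and 239, 360, 203, 72.4 and 121 in cKO. The cKO libraries were therefore all above CTRL in RS and all below CTRL in Spc. The interaction of let-7e-5p was 3.70 (SE 0.53, adjusted p = 0.000135), made of 2.22 in RS and -1.49 in Spc. It was 4.07 without S16 and S22.

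Other let-7 members moved in the same way, with an exception. In let-7b-5p the counts were 337, 225 and 359 in CTRL RS and 1045, 1103 and 1320 in cKO RS, whereas they were 1673 to 2737 in CTRL Spc and 372 to 1559 in cKO Spc. Neither cell type overlapped, and the interaction of let-7b-5p was 3.19 (SE 0.50, adjusted p = 0.000182). In miR-98-5p the counts were 11.6 to 12.9 in CTRL RS and 29.0 to 44.6 in cKO RS, but 69.0 to 82.3 in CTRL Spc and 16.1 to 40.1 in cKO Spc, with an interaction of 3.05 (SE 0.39, adjusted p = 6.82e-05). In contrast, let-7a-5p, the most abundant of those shown, had 7949 to 8414 in CTRL RS and 6410 to 9116 in cKO RS, and 6190 to 8033 in CTRL Spc and 5315 to 6360 in cKO Spc. Its interaction was 0.10 (95% confidence interval -0.30 to 0.50, adjusted p = 0.692), an interval that lies below the estimates of all the called let-7 members. On the common scale, where the median of all miRNAs is 1.45, let-7a-5p was at 1.495 and called. Over the family, 8 of 13 tested members were positive (61.5%, beside 20.9% of all miRNAs) and none negative (beside 22.5%), with a median interaction of 1.81 beside 0.03, and 6 had opposite called directions (beside 8.17% of all miRNAs). Together let-7 made up 4.86% to 5.25% of the miRNA counts in CTRL RS, 11.9% to 13.0% in cKO RS, 10.8% to 15.2% in CTRL Spc and 5.71% to 12.5% in cKO Spc.

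**Figure D2:**
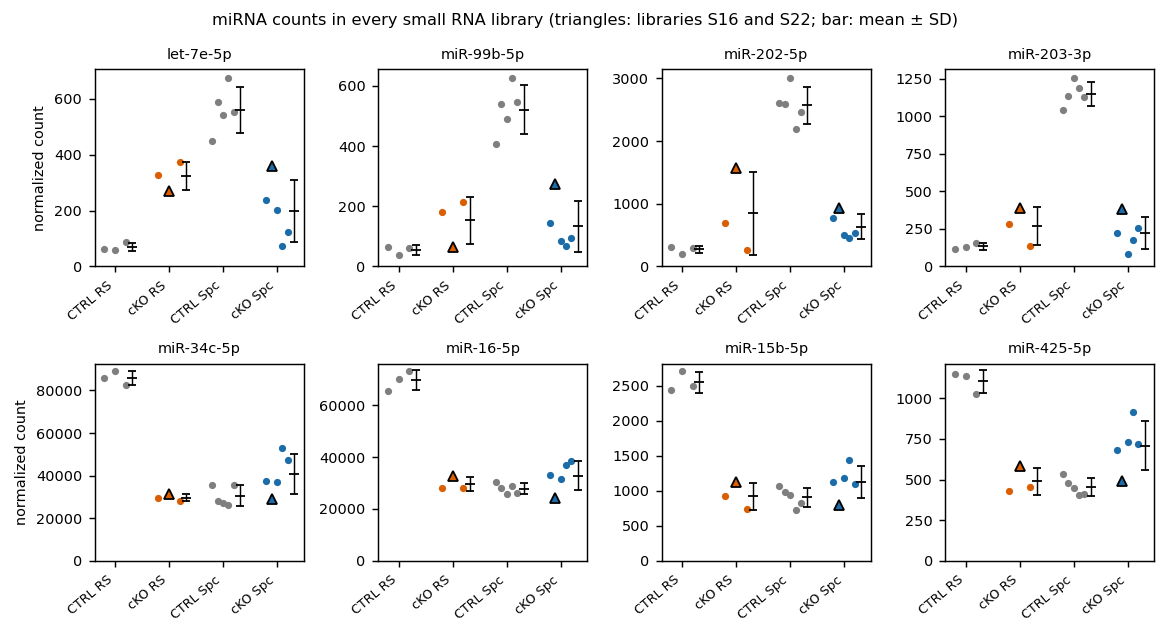
Normalized counts of 8 miRNAs (vertical axes, linear from 0) in the 4 groups, with 1 point per library, triangles for the libraries labelled S16 and S22, and bars for the mean and SD. For let-7e-5p the 3 cKO RS libraries lie above every CTRL RS library and the 5 cKO Spc libraries below every CTRL Spc library, and for miR-34c-5p the 3 cKO RS libraries lie below CTRL RS.

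The let-7e hairpin lies beside those of miR-99b and miR-125a within an exon annotated to Spaca6, on the plus strand of chromosome 17 between chr17:17830194-17830215 (miR-99b-5p) and chr17:17830817-17830840 (miR-125a-5p). All 4 tested miRNAs of this locus were positive, beside 20.9% of all miRNAs. In miR-99b-5p the counts were 63.6, 36.9 and 62.6 in CTRL RS and 180, 65.1 and 213 in cKO RS, and 405 to 626 in CTRL Spc and 67.6 to 275 in cKO Spc. The lowest cKO RS value, in S16, lay just above CTRL RS, and the interaction was 3.45 (SE 0.62, adjusted p = 0.000544) with S16 and S22 and 4.20 without them. In miR-125a-5p the counts were 345 to 470 in CTRL RS and 991 to 2008 in cKO RS, and 1826 to 2747 in CTRL Spc and 375 to 1665 in cKO Spc. Its interaction was 3.15 (SE 0.52, adjusted p = 0.000328). The related miR-100-5p, in an intron of Mir100hg on chromosome 9, had 53.5 to 82.9 in CTRL RS and 125 to 142 in cKO RS, and 393 to 594 in CTRL Spc and 49.9 to 199 in cKO Spc. The interaction of miR-100-5p was 3.39 (SE 0.52, adjusted p = 0.00018). In miR-125b-5p the counts were 1791 to 2349 in CTRL RS and 3938 to 10096 in cKO RS, and 6666 to 8560 in CTRL Spc and 1579 to 9993 in cKO Spc. Here the cKO Spc library S22 exceeded every CTRL Spc library, and the interaction was 2.58 (SE 0.63, adjusted p = 0.00363).

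The miR-34/449 family, which is needed together with its paralogs for normal spermatogenesis and multiciliated cells, had the opposite sign. In miR-34c-5p, the most abundant of them, the counts were 85973, 89327 and 82456 in CTRL RS and 29705, 31185 and 28076 in cKO RS. In Spc they were 35818, 28280, 27123, 26126 and 35827 in CTRL and 37393, 29207, 36789, 52906 and 47417 in cKO. The cKO RS values were all below CTRL RS and lay in the range of the Spc libraries, whereas the Spc groups overlapped. The interaction of miR-34c-5p was -1.95 (SE 0.24, adjusted p = 6.82e-05), made of -1.53 in RS and 0.41 in Spc. In miR-449a-5p, from an intron of Cdc20b on chromosome 13, the counts were 11901 to 13439 in CTRL RS and 5226 to 10479 in cKO RS, and 5668 to 7579 in CTRL Spc and 5320 to 12150 in cKO Spc. Its interaction was -1.49 (SE 0.35, adjusted p = 0.00323). The miR-34b-5p counts were 5914 to 6991 in CTRL RS and 1523 to 3474 in cKO RS, with an interaction of -1.89 (SE 0.38, adjusted p = 0.00125). On the common scale of the 3 tables, miR-34c-5p was at -0.46, and the calls of miR-449a-5p (-0.06) and miR-34b-5p (-0.46) ended.

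In contrast, miR-34a-5p, with the same seed but its own locus on chromosome 4, had a positive interaction. Its counts were 386, 365 and 425 in CTRL RS and 827, 649 and 406 in cKO RS, and 3294 to 4707 in CTRL Spc and 246 to 1277 in cKO Spc. The Spc groups did not overlap and the RS groups did, and the interaction of miR-34a-5p was 3.14 (SE 0.53, adjusted p = 0.000353). Over the family, 6 of 8 tested members were negative (75%, beside 22.5% of all miRNAs) and 1 was positive (12.5%, beside 20.9%), with a median of -1.58. With all 3 tables as a common scale that median was -0.12, and 3 of 8 members were above 0. Together the family made up 38.3% to 41.3% of the miRNA counts in CTRL RS, 21.2% to 26.0% in cKO RS, 20.4% to 27.0% in CTRL Spc and 22.4% to 38.1% in cKO Spc.

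The miR-15/16 seed group, whose members restrain cell cycle genes, was negative with an exception. The most abundant miRNA after miR-34c-5p, miR-16-5p, had 65585, 69990 and 73356 in CTRL RS and 28199, 32858 and 28080 in cKO RS, and 25624 to 30591 in CTRL Spc and 24060 to 38347 in cKO Spc. Its interaction was -1.46 (SE 0.19, adjusted p = 6.82e-05), but 0.01 with all 3 tables as a common scale. The miR-15b-5p hairpin lies in an intron of Smc4 on chromosome 3, and its counts were 2438 to 2712 in CTRL RS and 734 to 1120 in cKO RS, with an interaction of -1.78 (SE 0.27). In miR-195a-5p the difference in Spc was the larger one. Its counts were 329 to 382 in CTRL RS and 197 to 253 in cKO RS, and 68.2 to 97.2 in CTRL Spc and 118 to 270 in cKO Spc. Both cell types were without overlap, and the interaction was -1.87 (SE 0.34). The exception, miR-322-5p, from the X chromosome, had 120 to 152 in CTRL RS and 566 to 985 in cKO RS, but 466 to 745 in CTRL Spc and 341 to 890 in cKO Spc, with an interaction of 2.40 (SE 0.44, adjusted p = 0.00068). Over the 6 members with this seed, 5 were negative and 1 positive, beside 22.5% and 20.9% of all miRNAs. On the common scale of the 3 tables the calls of miR-15b-5p (-0.32) and miR-195a-5p (-0.44) ended.

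Several other abundant miRNAs were negative. In miR-184-3p the counts were 2114 to 2371 in CTRL RS and 483 to 613 in cKO RS, but 683 to 873 in CTRL Spc and 477 to 839 in cKO Spc. The interaction of miR-184-3p was -1.75 (SE 0.25), made of -2.07 in RS and of -0.32 in Spc, and the latter did not pass the test (adjusted p = 0.0849). In miR-425-5p the counts were 1025 to 1151 in CTRL RS and 431 to 586 in cKO RS, and 405 to 537 in CTRL Spc and 491 to 914 in cKO Spc, with an interaction of -1.81 (SE 0.27). In miR-301a-3p, from an intron of Ska2, the counts were 249 to 282 in CTRL RS and 122 to 169 in cKO RS, and 84.8 to 134 in CTRL Spc and 140 to 238 in cKO Spc. Here neither cell type overlapped and the interaction was -1.72 (SE 0.30). With all 3 tables as a common scale, the calls of miR-184-3p (-0.26), miR-425-5p (-0.35) and miR-301a-3p (-0.26) ended. Members of the miR-17-92 and paralog clusters, which drive proliferation, were negative for 7 of 13 tested (53.8%, beside 22.5% of all miRNAs) and positive for none (beside 20.9%), with a median of -1.05. With all 3 tables as a common scale, that median turned to 0.43 and 12 of the 13 were above 0.

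The X-linked testis miRNAs, a fast-evolving group expressed mainly in germ cells, had 9 positive and no negative members of 29 tested (31%, beside 20.9% positive over all miRNAs), with a median of 0.52. With S16 and S22 left out, 7 were positive and 1 negative, with a median of 0.18, where 29.4% of all miRNAs were called in each direction. They made up 15.7% to 18.6% of the miRNA counts in CTRL Spc, and less in CTRL RS (7.69% to 8.02%), cKO RS (6.83% to 11.8%) and cKO Spc (7.46% to 11.4%). The strongest were encoded together at chrX:67988099-67988403. There miR-547-3p had an interaction of 3.61 (SE 0.76, adjusted p = 0.00168) and miR-201-5p one of 3.31 (SE 0.60). The arm miR-201-3p had 1, 0 and 2 reads in CTRL RS, so its fitted interaction of 4.01 depends on the constant added to low counts. The miR-465a, miR-465b and miR-465c 3p arms had identical values in every library and cannot be told apart. In all, 18 tested miRNAs fell into 8 such sets of identical values, each counted here by name, which include the 3p arms of miR-199a and miR-199b. On chromosome X as a whole, 18 of 52 tested miRNAs with a sequence were positive (34.6%) and 1 negative (1.92%), beside 44 (21.8%) and 50 (24.8%) of 202 on autosomes.

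The most positive miRNAs included a member of the Sertoli and gonadal somatic list. This member, miR-202-5p, had 205 to 314 in CTRL RS and 695, 1574 and 266 in cKO RS, with the RS groups overlapping. In Spc it had 2195 to 3004 in CTRL and 447 to 934 in cKO, without overlap. It was thus highest in CTRL Spc, and whether it came from somatic cells here was not tested. Its interaction was 3.65 (SE 0.57, adjusted p = 0.000182), and 2.97 without S16 and S22. All 7 tested members of the Sertoli and gonadal somatic list, of which the 3p arms of miR-199a and miR-199b have the same values, were above 0, with a median of 2.64. Of these 2 were called (28.6%, near the 20.9% of all miRNAs), and 6 without S16 and S22, where 29.4% of all miRNAs were positive. The list made up 0.305% to 0.490% of the miRNA counts in CTRL RS, 1.32% to 3.32% in cKO RS, 2.39% to 3.05% in CTRL Spc, and 0.413% to 0.950% in cKO Spc other than S22, in which it was 3.81%. Its share moved in the same direction as that of let-7, and its part in those results was not tested. The epithelial miR-203-3p had 116 to 159 in CTRL RS and 133 to 386 in cKO RS, but 1041 to 1255 in CTRL Spc and 85.5 to 380 in cKO Spc, with an interaction of 3.34 (SE 0.53). The same value was found for miR-1981-5p (3.34, SE 0.66).

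**Figure D3:**
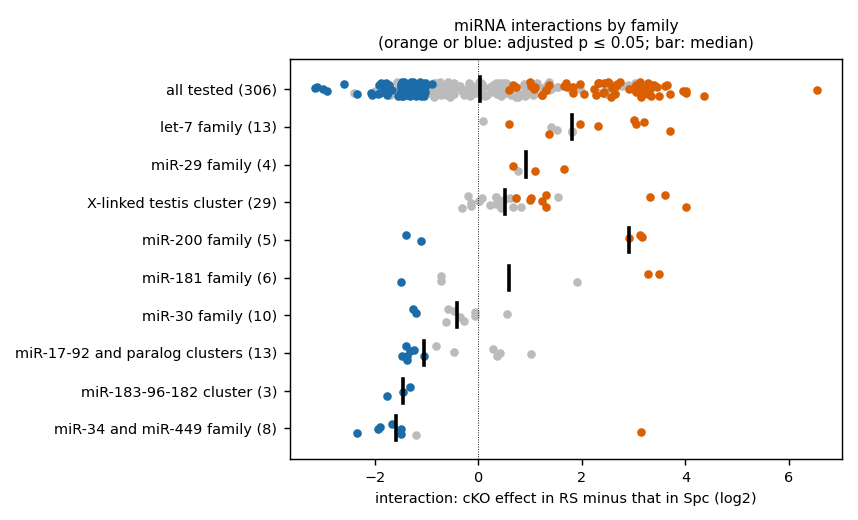
Interaction of each tested miRNA (horizontal axis, log2 units) by family, with orange and blue points for members called positive and negative, grey points for the others and bars for medians. The let-7 points lie at or above 0.10, and of the miR-34/449 points only miR-34a-5p lies above 0.

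Location and seed were described side by side for the 257 tested miRNAs with a matched sequence, which leaves out miR-34c-5p. Chromosome 18 was not used for the neighbourhoods. Elsewhere, hairpins within 10 kb of each other formed 63 neighbourhoods with at least 2 such miRNAs, counting each arm and each locus of a miRNA. Of these, 44 had calls in 1 direction, none had calls in both and 19 had no call. Of 33 seeds shared by at least 2 tested miRNAs, 16 had calls in 1 direction, 5 had calls in both and 12 had none. These counts rest on the scale of the miRNA table, since 1 miRNA was negative on the common scale of the 3 tables. The 5 seeds with both directions were those of miR-15/16, miR-34/449, miR-181a and both seeds of the miR-200 family, a group that keeps epithelial cells from turning mesenchymal. The miR-200 members of chromosome 4 were positive, with 3.11 for miR-200a-3p, 2.91 for miR-200b-3p and 3.16 for miR-429-3p. Those of chromosome 6 were negative, with -1.40 for miR-141-3p and -1.11 for miR-200c-3p, which turned to 0.10 and 0.39 on the common scale. In miR-181a-5p the counts were 33.2 to 43.6 in CTRL RS and 54.2 to 280 in cKO RS, and 163 to 215 in CTRL Spc and 35.4 to 174 in cKO Spc, with an interaction of 3.27 (SE 0.71). Its relative miR-181c-5p, on chromosome 8, had -1.50 (adjusted p = 0.0369), and -0.04 on the common scale. Without S16 and S22, 3 tested members of the miR-181 family were positive and 0 negative. The call of miR-181c-5p thus ended, and its seed no longer held calls in both directions. Arms of 1 hairpin and miRNAs cut from 1 transcript share their source, so these counts are a description. 

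The share of reads that miRNAs took moved with the interaction. Of the counts in the 3 tables, miRNAs took 2.31% to 2.41% in CTRL RS and 2.92% to 4.09% in cKO RS, against 3.14% to 3.76% in CTRL Spc and 2.41% to 4.03% in cKO Spc. The interaction of the log2 ratio of miRNA to piRNA cluster counts was 0.93 (two-sided exact permutation test, p = 0.00397, 0.0119 adjusted over the 3 ratios tested), and 1.23 without S16 and S22 (exact p = 0.000794). For tRNA fragments over piRNA clusters it was 0.62 (exact permutation p = 0.286, adjusted p = 0.321) and for miRNAs over tRNA fragments 0.31 (exact permutation p = 0.321, adjusted p = 0.321). With S16 and S22 left out these were 1.05 (exact permutation p = 0.113) and 0.18 (exact permutation p = 0.633). The permutation exchanged genotype labels within each cell type, so its null is no genotype effect in either. It is not an exact test of equal effects in RS and Spc.

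Called interactions of tRNA fragments went in both directions. Of 185 fragments tested, 13 were positive (7.03%) and 13 negative (7.03%), together 14.1%. Within RS, 19 were higher in cKO (10.3%) and 27 lower (14.6%, together 24.9%), and within Spc 1 was higher (0.541%) and 14 lower (7.57%, together 8.11%). Without S16 and S22, 18 were positive (9.94%) and 28 negative (15.5%), together 25.4% of the 181 tested, and 23 of the 26 calls were shared. With plain library size the split was 36 to 8, and with all 3 tables as a common scale 51 to 1. The counts within each cell type moved too. Plain library size gave 80 higher and 12 lower in RS and 5 and 9 in Spc. The common scale gave 150 and 1 in RS and 3 and 1 in Spc. Without S16 and S22 there were 30 higher and 29 lower in RS and 18 and 15 in Spc. Leaving out S29 alone gave 1 higher and 4 lower in Spc. Mitochondrial fragments were positive for 9 and negative for 1 of 47 tested, with a median of 1.01, and nuclear ones positive for 4 and negative for 12 of 138, with a median of -0.21. The difference between the origins was not tested. The 4 positive nuclear fragments, named after their values were seen, were the 5′ ends of tRNA-Arg-ACG (3.19), tRNA-Met-CAT (2.72), tRNA-Trp-CCA (2.71) and tRNA-Ile-AAT (1.54). At the threshold the fragment of mitochondrial tRNA-Cys-GCA was the last called (2.04, adjusted p = 0.0413) and the CCA end of mitochondrial tRNA-Glu-TTC the first not called (1.37, adjusted p = 0.0559). The names are those of the table, which gives no fragment sequence.

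The negative fragments included ends of glutamate and aspartate tRNAs, among others. Of the nuclear fragments tested, 3 of 6 of tRNA-Glu, 2 of 4 of tRNA-Asp and 2 of 3 of tRNA-iMet were negative, beside 7.03% of all. Also negative, and named after their values were seen, were tRNA-iMet-CAT with no end label (-1.72) and its 5′ end (-0.95). The others were the CCA end of tRNA-SeC-TCA (-2.34), the 5′ end of tRNA-Thr-TGT (-1.50) and tRNA-Ser-GCT with no end label (-1.28). The CCA end of tRNA-Glu-TTC had 2603, 2432 and 2162 in CTRL RS and 309, 231 and 252 in cKO RS. In Spc it had 674, 569, 476, 429 and 458 in CTRL and 388, 295, 355, 388 and 340 in cKO. All cKO values were below all CTRL values in both cell types, by 3.18 in RS and by 0.56 in Spc on the log2 scale, giving an interaction of -2.62 (SE 0.25, adjusted p = 8.17e-08). With all 3 tables as a common scale, the interaction of tRNA-Glu-TTC was -1.55. The CCA end of tRNA-Glu-CTC had 255 to 286 in CTRL RS and 67.5 to 82.4 in cKO RS, and 81.3 to 99.4 in CTRL Spc and 91.3 to 123 in cKO Spc, with an interaction of -2.11 (SE 0.25, adjusted p = 2.25e-06), but it was not called on that scale (-1.05).

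The 5′ end of tRNA-Glu-TTC had 3111 to 3843 in CTRL RS and 1024 to 2530 in cKO RS, and its interaction was not called (-0.60, adjusted p = 0.280). The 5′ end of tRNA-Glu-CTC was more abundant than its CCA end. It had 13045 to 16939 in CTRL RS and 3086 to 3455 in cKO RS, and 4176 to 7700 in CTRL Spc and 2090 to 4084 in cKO Spc. Its groups did not overlap in either cell type, and its interaction was -1.05 (SE 0.31, adjusted p = 0.0261), but 0.07 with all 3 tables as a common scale. Both ends of tRNA-Asp-GTC were negative. Its 5′ end had 8178 to 9998 in CTRL RS and 1362 to 2196 in cKO RS, and 1926 to 2935 in CTRL Spc and 1368 to 2745 in cKO Spc, with an interaction of -1.80 (SE 0.30). Its CCA end had 527 to 617 in CTRL RS and 82.5 to 198 in cKO RS, and 188 to 247 in CTRL Spc and 177 to 267 in cKO Spc, with an interaction of -1.94 (SE 0.31). On the common scale these were -0.62 and -0.82, and neither tRNA-Asp-GTC end was called. The CCA ends of the glycine tRNAs Gly-CCC and Gly-GCC followed with -1.12 and -1.09, and neither was called on the common scale. Their counts lay within 8.35% of each other in every library, so that these 2 tRNAs may share reads. Of the most abundant fragments, the CCA ends of tRNA-Ala-TGC, tRNA-Ala-CGC, tRNA-Val-CAC and tRNA-Val-AAC had estimates between -0.15 and 0.00 and were not called. The valine pair lay within 0.0681% and the alanine pair within 8.32% of each other in every library, so that each pair may share reads too.

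**Figure D4:**
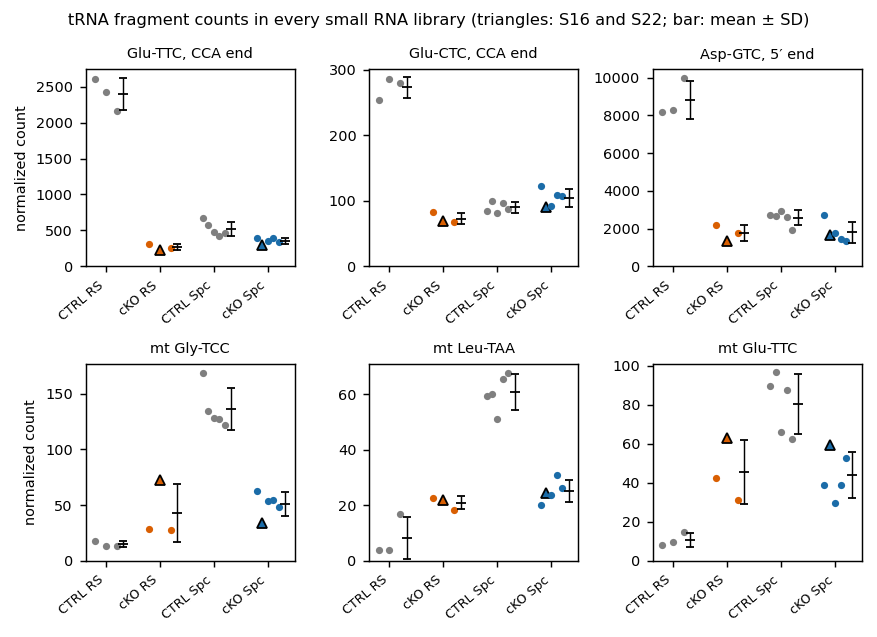
Normalized counts of 6 tRNA fragments (vertical axes, linear from 0) in the 4 groups, with 1 point per library, triangles for S16 and S22, and bars for the mean and SD. The CCA end of tRNA-Glu-TTC is at 231 to 309 in cKO RS against 2162 to 2603 in CTRL RS, and the fragment of mitochondrial tRNA-Gly-TCC is higher in cKO RS and lower in cKO Spc.

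Opposite directions were called for 4 tRNA fragments (2.16%), all mitochondrial, higher in cKO RS and lower in cKO Spc, with no overlap in either cell type, which held for 4.86% of all fragments. On the common scale of the 3 tables, only a single fragment was opposite, so that at least 3 of these calls ended there. The fragment of mitochondrial tRNA-Gly-TCC with no end label had 17.9, 13.4 and 13.3 in CTRL RS and 28.1, 72.9 and 27.7 in cKO RS. In Spc it had 169, 135, 129, 127 and 122 in CTRL and 62.4, 33.7, 53.6, 55.0 and 48.8 in cKO. Its highest cKO RS value was that of S16 and its lowest cKO Spc value that of S22, and its interaction was 2.91 (SE 0.45, adjusted p = 0.000103). The mitochondrial tRNA-Glu-TTC fragment had 7.96 to 14.5 in CTRL RS and 31.0 to 63.3 in cKO RS, and 62.5 to 96.6 in CTRL Spc and 29.8 to 59.3 in cKO Spc, with an interaction of 2.82 (SE 0.44). The mitochondrial tRNA-Leu-TAA fragment had 3.83 to 16.9 in CTRL RS and 18.3 to 22.7 in cKO RS, and 51.0 to 67.5 in CTRL Spc and 20.2 to 31.0 in cKO Spc, with an interaction of 2.40 (SE 0.45). The fourth, the 3′ end of mitochondrial tRNA-Gly-TCC, was at 0 in all CTRL RS libraries, so that its fitted interaction depends on the constant added to low counts. The single negative mitochondrial fragment, the 5′ end of tRNA-Met-CAT, had 324 to 417 in CTRL RS and 78.4 to 200 in cKO RS, and 65.3 to 98.3 in CTRL Spc and 50.0 to 313 in cKO Spc. Its interaction was -2.17 (SE 0.54, adjusted p = 0.00801), and -1.41 without S16 and S22, and it was not called on the common scale (-1.23). Without the pair, 7 fragments had opposite called directions (3.87% of 181).

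On the scale of their own table, most piRNA clusters changed in each cell type and few had an interaction. Of 214 clusters tested, 152 (71%) changed in RS, with 88 higher (41.1%) and 64 lower (29.9%), and 154 (72%) in Spc, with 84 higher (39.3%) and 70 lower (32.7%). In contrast, 9 had a positive interaction (4.21%) and 1 a negative one (0.467%), together 4.67%. No cluster passed the test in opposite directions in both cell types, by edgeR or by DESeq2, and 1 did at an unadjusted p under 0.05 in each. The median size of the interaction was 0.16, beside 1.14 for miRNAs, and the median standard error 0.13 beside 0.53. Of the 114 clusters named after a gene, 8 were positive, with a median of 0.21, and of the 100 named by chromosome band, 1 was positive and 1 negative, with a median of 0.03. Without S16 and S22, 31 clusters were positive (14.5%) and 6 negative (2.8%), together 17.3%, and all 10 earlier calls were shared with the same sign. Each of the calls in this table was lost on leaving out at least 1 library, and without S19 no cluster was positive, whereas without S25 28 were negative and 5 opposite. Scaled by the miRNA table instead, 0 clusters were positive, 193 negative and 76 opposite, with a median interaction of -1.45. On that scale 11 clusters were higher and 137 lower in RS, and 150 higher and 6 lower in Spc. Plain library size gave 123 higher and 24 lower in RS, and 141 and 32 in Spc.

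Among the called clusters with a mean of at least 100, pi-D10Wsu102e had the largest interaction. It lies at chr10:83360241-83488082 on the plus strand of mm10, and had 212, 171 and 221 in CTRL RS and 641, 388 and 553 in cKO RS, but 234 to 354 in CTRL Spc and 304 to 434 in cKO Spc. Its interaction was 1.03 (SE 0.23, adjusted p = 0.0189). The cluster pi-Zfp346, over the gene of a protein that binds double-stranded RNA, had 118 to 130 in CTRL RS and 199 to 247 in cKO RS, and 209 to 223 in CTRL Spc and 184 to 270 in cKO Spc. The RS groups of pi-Zfp346 did not overlap and the Spc groups did, with an interaction of 0.75 (SE 0.18). The band cluster 10-qC1-117 (chr10:84488294-84504837, plus strand) had 525 to 571 in CTRL RS and 353 to 485 in cKO RS, but 942 to 1274 in CTRL Spc and 297 to 635 in cKO Spc. Neither cell type of 10-qC1-117 overlapped. It fell by 1.29 in Spc, the difference in RS was -0.35 (adjusted p = 0.108), and the interaction was 0.94 (SE 0.24, adjusted p = 0.0375). The single negative cluster, 11-qE1-252, had 4481 to 4622 in CTRL RS and 3500 to 4056 in cKO RS, and 3204 to 3693 in CTRL Spc and 3355 to 4012 in cKO Spc, with an interaction of -0.34 (SE 0.094, adjusted p = 0.0422). Of the called clusters with lower counts, 3 that were named after their values were seen had larger estimates, at 1.70 for pi-Ssh1, 1.48 for pi-Dnmt3a and 1.45 for pi-Trim71.

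The long RNA counts of the same clusters, from 12 libraries of RS and Spc with 3 per group, gave the interaction of the precursor transcripts. Of 214 precursors tested, 28 were positive (13.1%) and 40 negative (18.7%), together 31.8%, but 80 were positive and 8 negative with plain library size. All 10 called clusters had a precursor value, and 7 of them were called there too, 6 with the same sign. The precursor of pi-Zfp346 had 1482 to 1891 in CTRL RS and 4739 to 5791 in cKO RS, and 3471 to 3844 in CTRL Spc and 4610 to 4931 in cKO Spc. Its interaction was 1.30 (SE 0.17), the same direction as its piRNAs. The precursor of pi-Socs7 went the other way. It had 41621 to 47952 in CTRL RS and 11829 to 16604 in cKO RS, against 8308 to 10412 in CTRL Spc and 7790 to 8636 in cKO Spc, with an interaction of -1.49 (SE 0.19). The piRNA counts of pi-Socs7 were 120 to 141 in CTRL RS and 298 to 345 in cKO RS, against 196 to 229 in CTRL Spc and 274 to 402 in cKO Spc, with an interaction of 0.65 (SE 0.18, adjusted p = 0.0422). Across the 213 clusters tested in both, Pearson's r between the interactions was 0.249 and Spearman's rho 0.211, as a description across clusters that share libraries.

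**Figure D5:**
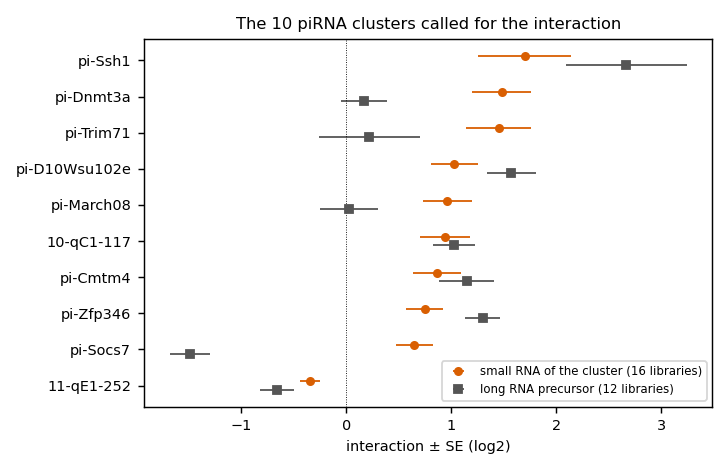
Interaction of the 10 called piRNA clusters beside that of their long RNA precursors (horizontal axis, log2 units), with circles for piRNAs, squares for precursors and bars of 1 standard error. For pi-Socs7 the piRNA interaction is 0.65 and that of the precursor -1.49, and for pi-Dnmt3a the precursor is near 0 at 0.17.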

How the data were processed

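Small RNA libraries were prepared with a QIAseq miRNA kit and sequenced as single reads. The authors annotated the reads with SPORTS1.1 against miRBase, GtRNAdb and mm10, and deposited raw counts per miRNA and per tRNA fragment, and expected counts per piRNA cluster after alignment with HISAT2 and counting with featureCounts, in which 68.3% of values were fractional. Whether reads were merged by molecular identifier is not given in the sources used here. Precursor values, also expected counts deposited by the authors, came from stranded long RNA libraries aligned with STAR. Expected counts were rounded, and blank cells taken as 0.

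Each table was fitted in edgeR 4.0.16 (R 4.3.3) with 4 group means, TMM normalization and the quasi-likelihood test of the interaction. SE is the estimate divided by the square root of F. miRNAs and tRNA fragments needed 10 counts in at least 3 of 16 libraries, clusters 1 count in every library and precursors 10 counts in total. P-values were adjusted by Benjamini-Hochberg per table, with a threshold of 0.05. Ratios of summed counts were tested by a two-sided exact permutation of genotype within cell type, whose null is no genotype effect in either cell type. The fit was checked on simulated counts. Members, lists and tests were chosen with earlier results of these data known. Members are described in the text if called with a mean of at least 100 (the 8 most positive and 8 most negative per table), called in opposite directions, among the 5 most abundant, or on a list of families and marker miRNAs, and other members are given with their seed, locus or place at the threshold. Replicate libraries differed by more than counting error in every pair and table, so none was counted as a duplicate. Such a difference does not tell separate mice from repeat preparations of 1 sample. Alternatives were DESeq2 1.42.0, other scalings, other filters, a replicate block for the precursors, leaving out each library, and leaving out S16 and S22, which was chosen after seeing the data. Depth, given with the results, limits low members most.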

Additional observations from a re-analysis of the deposited data

Results flagged for a closer look

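A difference in the cKO effect between RS and Spc, tested as an interaction, is the reason for a closer look at 43 of the named small RNAs. Among miRNAs the positive interactions were 4.01 for miR-201-3p, 3.70 for let-7e-5p, 3.65 for miR-202-5p, 3.61 for miR-547-3p, 3.45 for miR-99b-5p, 3.39 for miR-100-5p, 3.34 for miR-1981-5p and for miR-203-3p, 3.31 for miR-201-5p, 3.27 for miR-181a-5p, 3.19 for let-7b-5p, 3.15 for miR-125a-5p, 3.05 for miR-98-5p and 2.58 for miR-125b-5p. The negative ones were -1.95 for miR-34c-5p, -1.89 for miR-34b-5p, -1.87 for miR-195a-5p, -1.81 for miR-425-5p, -1.78 for miR-15b-5p, -1.75 for miR-184-3p, -1.72 for miR-301a-3p, -1.67 for miR-34b-3p, -1.49 for miR-449a-5p and -1.46 for miR-16-5p.

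Among tRNA fragments, the interaction was -2.62 for the CCA end of tRNA-Glu-TTC, -2.17 for the 5′ end of mitochondrial tRNA-Met-CAT, -2.11 for the CCA end of tRNA-Glu-CTC, -1.94 and -1.80 for the CCA and 5′ ends of tRNA-Asp-GTC, -1.12 and -1.09 for the CCA ends of tRNA-Gly-CCC and tRNA-Gly-GCC, and -1.05 for the 5′ end of tRNA-Glu-CTC. It was 2.91, 2.82 and 2.40 for the mitochondrial tRNA-Gly-TCC, tRNA-Glu-TTC and tRNA-Leu-TAA fragments. The fitted interaction of 6.95 for the 3′ end of mitochondrial tRNA-Gly-TCC depends on the constant added to low counts, since CTRL RS was at 0, and is no bound on a fold. Among clusters it was 1.03 for pi-D10Wsu102e, 0.96 for pi-March08, 0.94 for 10-qC1-117, 0.87 for pi-Cmtm4, 0.75 for pi-Zfp346, 0.65 for pi-Socs7 and -0.34 for 11-qE1-252.

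In 6 of 104 Spc groups of 5 libraries, 1 library stood far from the others by Dixon's ratio of gap to range, where chance gives about 1 in 20. The library was S22 for miR-34b-3p (0.747), miR-125b-5p (0.741) and miR-1981-5p (0.734). The others were S21 for the 5′ end of tRNA-Asp-GTC (0.716), S26 for the mitochondrial tRNA-Gly-TCC fragment (0.736) and S30 for the cluster 2-qE1-35981 (0.762).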

How the results depend on the processing

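Of the 53 named miRNAs, tRNA fragments and clusters, all kept direction and side of the threshold by DESeq2 and without S16 and S22, and leaving out 1 library at a time kept 785 of their values on the same side and ended the call in 60, none of them for a miRNA. The scale mattered most. With plain library size the miRNA counts were 99 positive, 34 negative and 39 opposite, the tRNA fragment counts 36 positive and 8 negative, no cluster was negative, and the precursor counts were 80 positive and 8 negative. With all 3 tables as a common scale they were 135, 1 and 54 for miRNAs, 51 positive, 1 negative and 1 opposite for tRNA fragments, and 9 negative clusters. On that scale 16 of the 53 lost their call and 4 reversed, against 4 that lost it with plain library size, and let-7a-5p gained one on both scales. Those lost on the common scale were 8 miRNAs, 6 tRNA fragments and 2 clusters, and miR-16-5p turned to 0.0055, the 5′ end of tRNA-Glu-CTC to 0.066, and the CCA ends of tRNA-Val-CAC and tRNA-Val-AAC to 0.89 each. Scaled by the miRNA table instead of their own, clusters had 0 positive, 193 negative and 76 opposite calls, and pi-D10Wsu102e turned to -0.52, pi-March08 to -0.58, 10-qC1-117 to -0.62, pi-Cmtm4 to -0.71, pi-Zfp346 to -0.83, pi-Socs7 to -0.91, and the abundant clusters 9-qC-31469, 2-qE1-35981, 5-qG3-23659 and 17-qA3-27363 to -1.39, -1.50, -1.41 and -1.43. Without a filter, 30 miRNAs were negative of 864. By DESeq2, 5 clusters and 63 precursors were negative. With a size of at least 1 asked for, 4 clusters were positive and 0 negative. Without S16 and S22, the counts that moved were 59 opposite miRNAs, 28 negative and 7 opposite tRNA fragments, and 31 positive and 6 negative clusters. Leaving out 1 library gave 58 to 80 positive, 52 to 77 negative and 14 to 48 opposite miRNAs (14 without S18, 15 without S19, S28 or S29, 16 without S30 and 48 without S22). It gave 9 to 18 positive, 10 to 25 negative (25 without S16) and 2 to 5 opposite tRNA fragments (2 without S26 or S29). Clusters ranged over 0 to 26 positive (0 without S19, 1 without S15, 3 without S18, S20, S26 or S28, 4 without S24, 5 without S17, 17 without S25 and 26 without S16), 0 to 28 negative (0 without S15, S18, S19, S20, S21, S23 or S27, 4 without S28, 5 without S24, 6 without S16 or S26, 10 without S30, 14 without S29 and 28 without S25) and 0 to 5 opposite (1 without S17 or S26, 2 without S24, S28, S29 or S30, and 5 without S25). Precursors ranged over 19 to 39 positive and 27 to 59 negative. The causes were not tested. Low members limit the precision, with a median standard error of 0.53 for miRNAs, 0.40 for tRNA fragments and 0.13 for clusters.

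No paired analysis was possible for the small RNA tables because their columns carry no replicate number. For the precursors, a replicate block gave 19 positive and 32 negative calls. Same-numbered RS and Spc precursor libraries correlated in their deviations from the group means by -0.20 to 0.18. With so few libraries per group, this cannot show whether those of the same number came from the same mice.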

Other observations

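The miR-29 family, which restrains collagen and other matrix genes, had 3 of 4 tested members positive (75%, beside 20.9% of all miRNAs) and none negative, with a median interaction of 0.92, and made up 1.03% to 1.14% of the miRNA counts in CTRL RS, 1.87% to 1.95% in cKO RS, 1.98% to 2.55% in CTRL Spc and 1.20% to 2.20% in cKO Spc. All 3 tested miRNAs of the miR-183/96/182 hairpins, known from sensory cells, were negative (beside 22.5% of all miRNAs), with a median of -1.46. Of 10 tested miR-30 miRNAs, 2 were negative (20%, near the 22.5% of all miRNAs) and none positive, with a median of -0.41. On the common scale of the 3 tables the miR-30 median turned to 1.06 and that of miR-183/96/182 to 0.00.

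The miRNAs of the imprinted Dlk1-Dio3 region were also examined. Of 15 tested, none had a positive and 2 a negative interaction, beside 20.9% and 22.5% of all miRNAs. Their median cKO effect was 2.32 in RS and 1.60 in Spc on the log2 scale, beside 0.38 and 0.24 for all miRNAs. They made up 0.0752% to 0.0968% of the miRNA counts in CTRL RS, 0.202% to 0.381% in cKO RS, 0.0576% to 0.114% in CTRL Spc and 0.103% to 0.384% in cKO Spc.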
